A study of Mus musculus with 6 samples.

Results

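The comparison described here sets 1 library labelled siSmyd5 against 1 library labelled siCtl, both from macrophages given KLA, and covers 2 of the 6 RNA-seq libraries of the study. The cells were elicited with thioglycollate and taken from the peritoneum of female C57BL/6 mice. They received control, Smyd5 or Phf2 siRNA for 48 h, and then vehicle or KLA (Kdo2-LipidA, the lipid A agonist of TLR4) at 100 ng/ml for 4 h. Both KLA libraries thus share the strain, the eliciting agent, the transfection and the TLR4 agonist, and by label differ in the siRNA alone. The labels name no separate animals or cultures. Genes were compared where the mean over the 6 libraries was at least 10 reads, which left 7995 of the 23282 gene symbols in the deposited table. With 1 library per group there is no replicate check. A gene is therefore called higher or lower by size only, at a log2 ratio of at least 1 in either direction with a 95% interval of the ratio that excludes 1. That interval is the exact conditional Poisson interval, which covers counting error only, and reads without molecular identifiers are not independent molecules.

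SMYD5 belongs to the SET and MYND domain proteins and has been described in macrophages as a methyltransferase that places the trimethyl mark on lysine 20 of histone H4 at promoters of TLR4-responsive genes, where it acts with the NCoR corepressor. PHF2 is a demethylase that has been described as removing that mark when TLR4 is engaged. TLR4 itself signals through a MyD88 branch, which drives NF-kB and the early inflammatory genes, and through a TRIF branch, which drives interferon beta and, through its receptor, the interferon-stimulated genes. The comparison addresses which genes of KLA-treated macrophages differ when SMYD5 is targeted.

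Some properties of the libraries come before the results. The siSmyd5 columns held whole reads when scaled back with their own header totals, while each siCtl column held whole reads only with the total printed for the siPhf2 column of the same agent. The table as deposited thus holds an exchange between siCtl and siPhf2, of column names or of header totals, and the printed names were kept. Every direction and call below rests on those printed names. Values with the KLA columns exchanged were computed for 12 of the 36 lists and for chosen genes. They are given beside many, not all, of those whose direction reversed or whose calls changed most. The siPhf2-labelled libraries also stood apart, with 71.6% of the KLA reads on the ribosomal transcript Rn45s, against 0.804% in siSmyd5 KLA and 0.724% in siCtl KLA. Recovered reads on transcripts came to 919325 in siSmyd5 KLA and 1429521 in siCtl KLA, with medians of 46 and 74 reads per gene. After TMM scaling, a gene at an equal level was expected to have 0.626 siSmyd5 reads for each siCtl read. Per the labels, siCtl KLA and siSmyd5 KLA carry the same barcode of 2 bases, and the labels name no batch.

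The targeted gene did not detectably differ between the KLA libraries. Smyd5 (chr6:85381970-85396423, plus strand, mm9, whole transcript) had 20 reads in the library labelled siSmyd5 KLA and 29 in siCtl KLA, a ratio of 1.10 with an interval of 0.591 to 2.02. In the vehicle libraries it had 9 reads against 44, a ratio of 0.329 (0.141 to 0.683). The Smyd5 label is thus matched by lower Smyd5 reads under vehicle and not under KLA, where a reduction to below 0.591 of the control lies outside the interval. Phf2, the targeted gene of the other arm (chr13:48897119-48966254, minus strand), had 34 reads against 120 in the KLA pair, a ratio of 0.453 (0.300 to 0.668), and 52 against 113 in the vehicle pair. In the siPhf2-labelled libraries Phf2 had 29 reads under vehicle and 8 under KLA, at TMM-scaled library sizes of 246465 and 138578. Those sizes were 2435206 and 2251456 in siCtl, where Phf2 had 113 and 120 reads. At these sizes Phf2 was not lower under the siPhf2 label, on few reads. Whether names or header totals were exchanged was not tested. Because Smyd5 reads did not follow the label under KLA, the name "siSmyd5-labelled" is used below.

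Ratios ran with mRNA length. The shortest 400 genes, with a median length of 660.5 bases, had a median log2 ratio of 0.48, and the longest 399 genes, with a median of 9118 bases, had one of −0.54. The same slope was present in the vehicle pair, where those medians were 0.58 and −0.54. As measured, 138 genes were called higher in the siSmyd5-labelled library (1.73%) and 292 lower (3.65%). The median length was 1031.5 bases among the genes higher and 5282 among the genes lower, against 2921 for all genes compared. After subtraction of the median of the genes of like length (20 groups of equal size), 75 genes were called higher (0.938%) and 185 lower (2.31%), with median lengths of 2924 and 3178 bases. Of the uncorrected calls, 55 higher and 160 lower were kept, and 20 higher and 25 lower were called only after the correction. The shares of called genes over all genes are the background for the counts in each list below. A short list without calls is near them. Below, a log2 difference is length-corrected unless it is said to be as measured, and a ratio in linear form with its interval is always as measured.

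**Figure D1:**
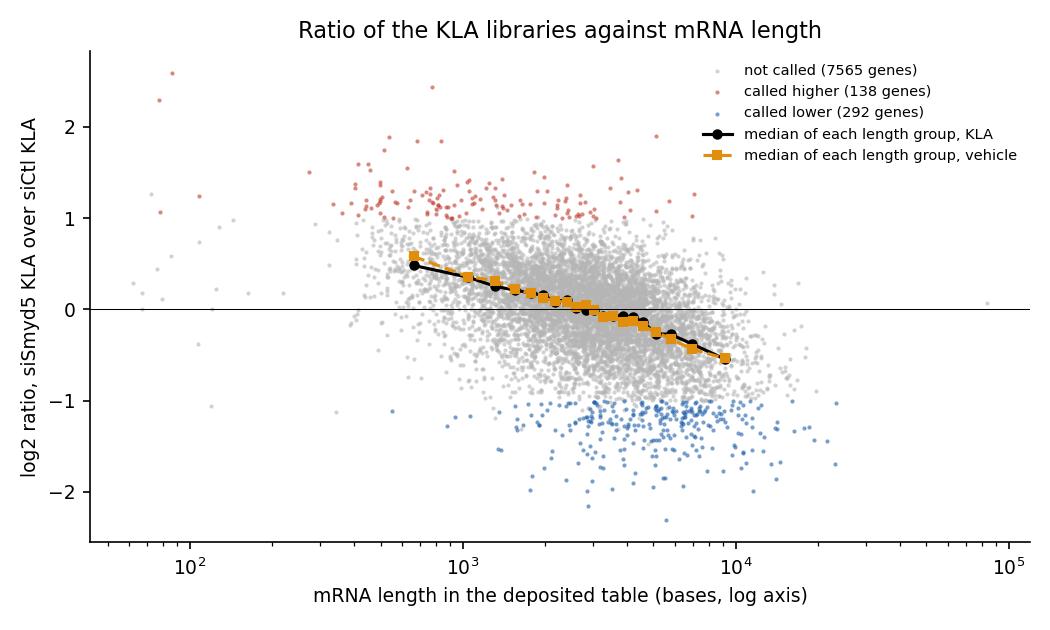
Each point is 1 of the 7995 genes, with its mRNA length on a log axis and its measured log2 ratio of siSmyd5 KLA over siCtl KLA. Red and blue points were called higher (138) and lower (292), and the black and orange lines join the medians of 20 length groups in the KLA and the vehicle pair, which fall together with length, from 0.48 to −0.54 under KLA.

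Read number set what could be seen. For 4319 genes (54.0%) the whole interval of the measured ratio lay between 0.5 and 2, so a 2-fold difference was outside it. That share was 5.32% among the 1728 genes with a mean of 10 to 20 reads and 96.8% among the 406 with 300 or more. Most calls came from thinly covered genes: of the 185 genes lower, 91 had a mean of 10 to 20 reads and 72 a mean of 20 to 50, and 1 had 300 or more. That gene was Ftl1, the ferritin light chain, with 1992 reads against 5410, a log2 difference of −1.12, and it was lower under vehicle too (−1.34). Just inside the bound stood Rala (1.01) and Abhd8 (1.01) among the genes higher and Tm2d2 (−1.0) and Rasl11a (−1.0) among the genes lower, and just outside stood Acsl3 and Camk1 (1.0 each) and Chd9 and Shmt2 (−1.0 each).

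**Figure D2:**
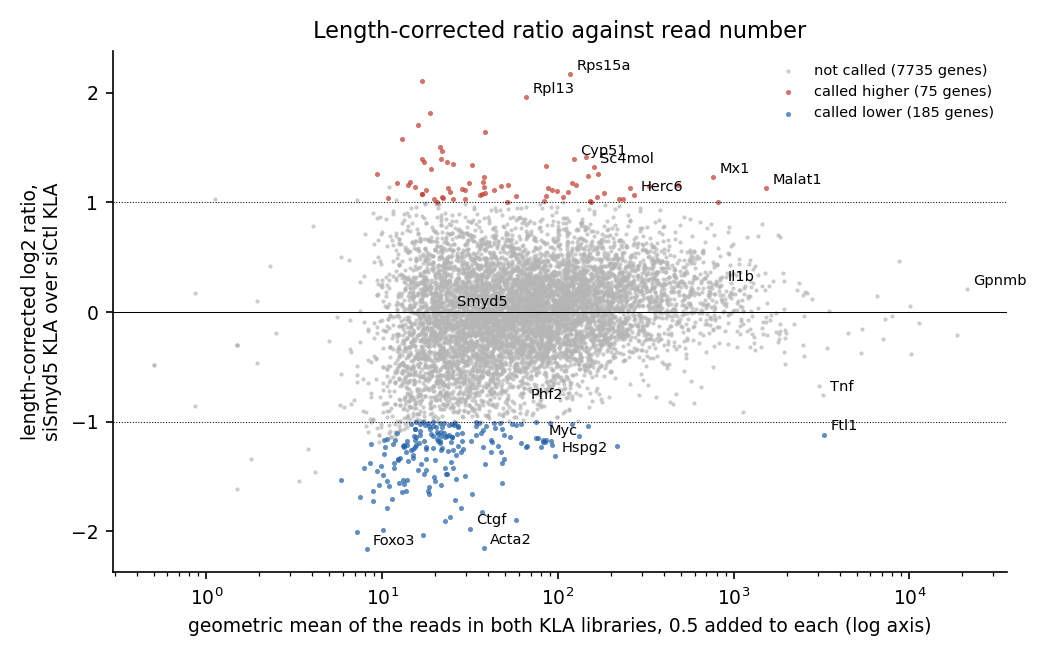
The vertical axis is the length-corrected log2 ratio of siSmyd5 KLA over siCtl KLA and the horizontal axis the geometric mean of the reads of both libraries (log axis), with dotted lines at 1 and −1. The 75 genes called higher (red) reach into the well-covered range with Mx1 and Malat1, whereas the 185 called lower (blue) lie mostly at low read numbers, Ftl1 excepted, and Smyd5 lies near 0.

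Under the printed column names, inflammatory cytokines held few calls between the libraries, as did all genes compared. Of 21 inflammatory cytokines compared, of 27 listed, 0 were called after the length correction (all genes: 0.938% higher and 2.31% lower). The median was −0.06. For 12 the whole interval of the measured ratio lay between 0.5 and 2, near the share over all genes (54.0%). With the columns exchanged, 1 of the 21 was higher and 7 lower and the median was −0.94, where 476 of all 7995 genes were higher and 939 lower. As measured, Csf2, the growth factor GM-CSF, was the 1 cytokine called higher, with 36 reads against 26. Its ratio was 2.21 (1.30 to 3.82) and its corrected log2 difference 0.70.

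Tnf, the early TLR4 cytokine (chr17:35336336-35338941, minus strand), had 2118 reads in the siSmyd5-labelled library and 4929 in siCtl. Its ratio was 0.687 (0.653 to 0.723), below 1 in its whole interval, and its log2 difference was −0.75. Il1b, the NF-kB-dependent cytokine interleukin-1 beta, had 795 reads against 901, a ratio of 1.41 (1.28 to 1.55) and a log2 difference of 0.24. Il6 had 178 reads against 168, a ratio of 1.69 (1.36 to 2.10), and Il1a had 1417 against 2617, a ratio of 0.866 (0.811 to 0.924). Single cytokines thus lay on both sides of 1 with intervals that exclude it, and 5 of the 21 had a corrected interval above 1 (all genes: 13.5%) and 4 one below (all genes: 9.58%). KLA over vehicle came to 190 (132 to 287) for Tnf in siCtl and to 175 (102 to 330) in the siSmyd5-labelled arm. With the columns exchanged, Il1b went to −3.00 on the log2 scale, whereas Tnf stayed below 0.

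Of 16 chemokines compared 0 were called after the correction (all genes: 0.938% higher and 2.31% lower), 4 lay above 0, and the median was −0.18. A corrected interval below 1 was found for 7 of them (all genes: 9.58%) and one above 1 for 4 (all genes: 13.5%). The exchanged columns gave 2 higher and 7 lower, and a median of −0.89. As measured, Ccl8, a monocyte chemokine, was called higher with 53 reads against 34, a ratio of 2.49 (1.59 to 3.95), and it stood as high under vehicle, at 62 reads against 33. Ccl2, which recruits monocytes, had 1528 reads against 2113 and a ratio of 1.16 (1.08 to 1.24). Ccl4 had 965 against 1205, a ratio of 1.28 (1.18 to 1.39) that became a log2 difference of −0.13 once its length of 657 bases was taken into account. Cxcl10, which responds to interferon as well as NF-kB, had 548 against 526 reads, a ratio of 1.67 (1.48 to 1.88) and a log2 difference of 0.38 (−2.23 with the columns exchanged).

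Under the printed names neither the pathway nor its effectors held a called gene. Calls were rare over all genes too, at 0.938% higher and 2.31% lower after the correction and 1.73% and 3.65% as measured. Lists of this size without calls are near those shares. Of 21 genes of the Toll-like receptor pathway, 34 genes of NF-kB subunits, inhibitors and feedback and 32 LPS effector enzymes and receptors, 0 were called in either direction after the correction or as measured, with corrected medians of 0.03, 0.00 and −0.03. In the exchanged columns 1 of the 34 NF-kB genes was higher and 16 lower with a median of −1.14, and 2 of the 32 effectors were higher and 11 lower with a median of −0.66. Tlr4, the receptor itself, had 95 reads against 156, a ratio of 0.974 (0.746 to 1.26). Nfkbia, the inhibitor that NF-kB induces, had 920 against 1328, a ratio of 1.11 (1.02 to 1.21), and Tnfaip3, which encodes the deubiquitinase A20, had 1323 against 2260, a ratio of 0.936 (0.874 to 1.0). Irg1, which makes itaconate, had 1979 against 3205 and a ratio of 0.987 (0.933 to 1.04), with a 2-fold difference far outside its interval. Nos2, the inducible nitric oxide synthase, was higher, with 199 reads against 230, a ratio of 1.38 (1.14 to 1.68) and a log2 difference of 0.53 (−1.68 with the columns exchanged).

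Interferon-stimulated genes stood higher as a group in the siSmyd5-labelled library. Of 65 listed, 60 were compared, and 52 of these had a log2 difference above 0, with a median of 0.51 against 0.00 for all genes. A corrected interval above 1 was found for 41 of the 60 (all genes: 13.5%) and one below 1 for 3 (all genes: 9.58%). Few reached the 2-fold bound: Mx1 and Herc6 were called after the correction, and Mx1, Mx2, Usp18, Ifi47 and Isg20 as measured. The median of the same 60 genes under vehicle was −0.09, and 55 of them had a higher value in the KLA pair than in the vehicle pair. With the siCtl and siPhf2 columns exchanged, the KLA median became −1.52, with 1 of the 60 higher and 44 lower, so the direction of this group rests on the printed column names.

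Promoter windows of 3 of these genes are shown because the members stood higher together and many of them are known to be controlled by one element, the interferon-stimulated response element. Each is the 250 bases before the start of the gene, 5′ to 3′ on the strand of the gene, from RefSeq on GRCm38.p6. Capitals mark matches to GAAANNGAAA on either strand, a spelling of the core of that element, so the Ifit1 window shows its reverse complement. Only members with a match and 1 window were eligible, and the 3 with the largest log2 differences were taken. A match in each window shown is thus a result of the selection. Ifi203 (0.87) held a match too but had 2 windows. The windows are Irgm1 chr11:48871421-48871670 (minus strand), Igtp chr11:58199306-58199555 (plus strand) and Ifit1 chr19:34640639-34640888 (plus strand).
Irgm1: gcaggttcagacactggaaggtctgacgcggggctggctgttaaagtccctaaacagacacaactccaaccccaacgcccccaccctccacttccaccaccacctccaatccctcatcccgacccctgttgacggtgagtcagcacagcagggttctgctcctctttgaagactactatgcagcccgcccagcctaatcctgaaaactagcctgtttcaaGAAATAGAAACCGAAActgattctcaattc
Igtp: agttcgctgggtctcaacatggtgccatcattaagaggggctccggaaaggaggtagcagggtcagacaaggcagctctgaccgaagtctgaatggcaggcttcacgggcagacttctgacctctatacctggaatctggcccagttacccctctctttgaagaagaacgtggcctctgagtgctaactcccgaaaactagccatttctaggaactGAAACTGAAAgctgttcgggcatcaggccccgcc
Ifit1: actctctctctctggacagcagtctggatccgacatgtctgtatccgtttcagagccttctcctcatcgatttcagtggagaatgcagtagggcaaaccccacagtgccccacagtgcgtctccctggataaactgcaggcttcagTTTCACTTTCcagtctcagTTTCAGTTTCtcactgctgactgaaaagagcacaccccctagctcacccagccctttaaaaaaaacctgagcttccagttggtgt
The first bases of the matches lay at −104 and −85 in Ifit1, at −34 in Igtp and at −30 and −24 in Irgm1, where the 2 matches overlap. Of the 60 genes compared, 48 had a window, and 20 of these (41.7%) held a match, against 3.37% of the 6437 genes compared that had one. Herc6 (1.07), Ifi47 (0.87) and Cmpk2 (0.82) had larger log2 differences than the 3 shown, and their windows held no match. Isg15 (0.08), Bst2 (−0.18) and Oas3 (−0.23) held one or more. Whether a match goes with the log2 difference was not tested. A match is a description of letters, not of binding. Mx1, Mx2, Usp18, Oas1b, Oas2, Dhx58, Zbp1, Parp9, Parp10, Parp14, Iigp1 and Ifi204 had no entry.

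Mx1, a gene of the dynamin-like GTPase family, had the largest difference of the group under the printed names. It lies at chr16:97668642-97684513 (minus strand, mm9), and the table lists its transcript and that of Mx2 as non-coding. A functional protein is thus not implied by these reads. It had 931 reads in the siSmyd5-labelled KLA library and 623 in siCtl KLA, a ratio of 2.39 (2.16 to 2.65) and a log2 difference of 1.23 (−1.90 with the columns exchanged). With the length of the longest listed transcript the log2 difference was 0.89, under the threshold. Without KLA it had 21 and 40 reads, a ratio of 0.845 (0.473 to 1.47). The KLA libraries thus differed beyond counting error and the vehicle libraries did not detectably, though the difference between the pairs was not tested. KLA over vehicle came to 16.9 (12.2 to 23.8) in siCtl and 47.7 (31.0 to 77.4) in the siSmyd5-labelled arm. Its paralog Mx2, with which reads may be shared, had 334 against 255 reads, a ratio of 2.09 (1.77 to 2.47) and a log2 difference of 0.95 (−1.69 with the columns exchanged).

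Herc6, an ISG15 ligase in the mouse, had 284 reads against 259, and its length of 5256 bases took a ratio of 1.75 (1.48 to 2.08) to a log2 difference of 1.07. Usp18, the protease that removes ISG15 and damps the interferon receptor, had 219 against 155 reads, a ratio of 2.26 (1.83 to 2.79) and a log2 difference of 0.98. Ifi47, an interferon-inducible GTPase, had 594 against 457, a ratio of 2.08 (1.84 to 2.35), and Isg20, an exonuclease, had 29 against 19. Herc6, Usp18, Ifi47 and Isg20 all reversed with the columns exchanged (−0.68, −1.25, −1.65 and −2.27).

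The 3 genes with windows above followed them at smaller sizes. Irgm1, an immunity-related GTPase, had 798 reads against 688 and a ratio of 1.85 (1.67 to 2.06). Igtp, of the same family, had 329 against 277 and a ratio of 1.90 (1.61 to 2.24), and it too reversed with the columns exchanged (−1.20). Ifit1, which binds viral RNA, had 1397 against 1360 and a ratio of 1.64 (1.52 to 1.77), whereas under vehicle it had 8 reads against 27. With the columns exchanged, the log2 differences of Irgm1 and Ifit1 turned negative as well, by less than that of Igtp. Ifit genes have near copies, so their reads may be split. The exceptions included Isg15, with 998 reads against 1079 and a log2 difference of 0.08, and Bst2 (tetherin), with 181 against 234 and −0.18, both of which have short mRNAs.

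Of 19 regulators of the interferon pathway 0 were called, and 13 had a log2 difference above 0, with a median of 0.33 under KLA and −0.09 under vehicle. Under the exchange 1 of the 19 was higher and 8 lower, and the median turned to −0.93. Irf1, an interferon-induced transcription factor, had 500 against 588 and a ratio of 1.36 (1.20 to 1.53), and Irf7 396 against 536 and 1.18 (1.03 to 1.35).

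Genes induced by KLA were also taken from the siPhf2-labelled arm, which under the printed names neither library of the contrast belongs to. There, 405 genes had a log2 ratio of KLA over vehicle of at least 2. Of these, 66 were on the interferon lists, and 57 of them had a log2 difference above 0 between the siSmyd5-labelled and the siCtl KLA library, with a median of 0.48. These 66 are members of the interferon lists described above, so the same log2 differences are counted again and add no separate evidence. Among the 339 others, 183 lay above 0, with a median of 0.03.

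**Figure D3:**
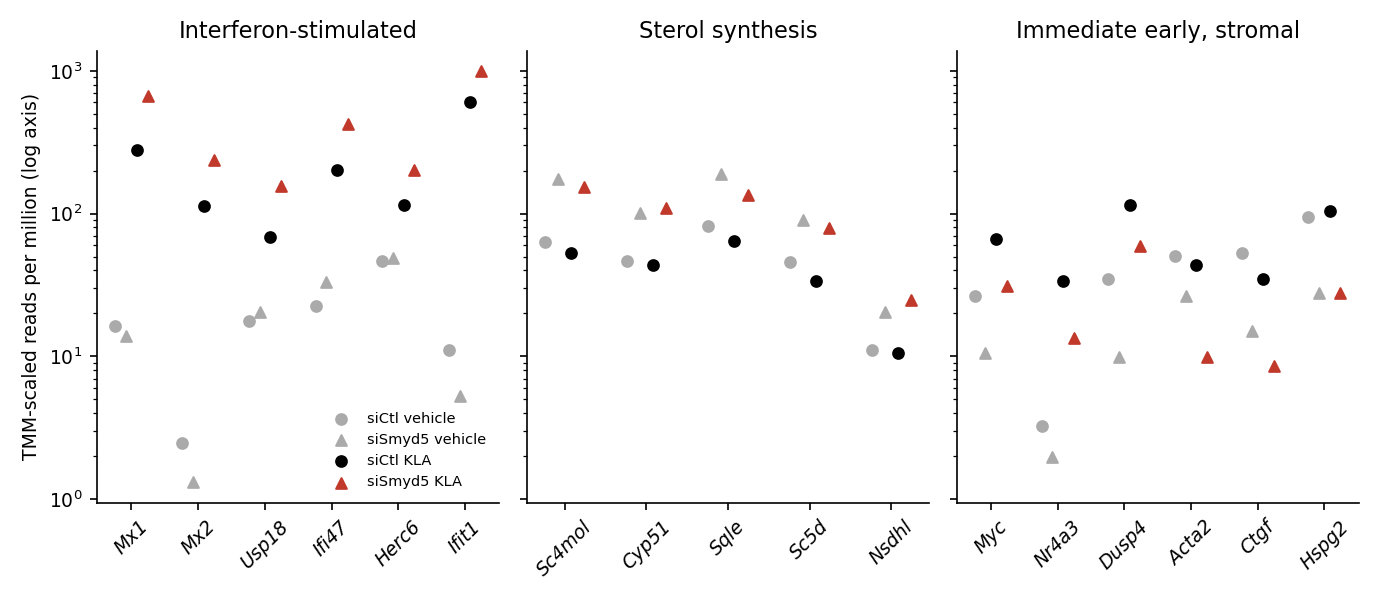
Reads per 1000000 TMM-scaled reads (log axis) in the siCtl libraries (circles) and the siSmyd5-labelled libraries (triangles), with vehicle in grey and KLA in black or red, 1 library per symbol and no error bars. The 6 interferon-stimulated genes separate between the KLA libraries, the 5 sterol genes are higher in both siSmyd5-labelled libraries, and the 6 genes of the third panel are lower in both.

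Under the printed column names, sterol synthesis had the highest corrected median of the 36 lists. Cholesterol is made from acetyl-CoA through mevalonate, squalene and lanosterol, and most enzymes of this route are controlled together by the transcription factor SREBP2. Of 20 enzymes listed, 14 were compared, all 14 had a log2 difference above 0, and the median was 0.73. As measured 7 were called higher (all genes: 1.73%), and after the correction 6 (all genes: 0.938%), among them Sc4mol, Cyp51, Sqle, Sc5d and Nsdhl. With the columns exchanged the median was 0.57, but 1 was called higher and 1 lower, so most calls were lost. In the vehicle pair 3 were called higher and the median was 0.62, so this group, unlike the interferon genes, had a similar median with and without KLA.

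The windows of Cyp51 chr5:4104698-4104947, Sc4mol chr8:64733579-64733828 (named Msmo1 in RefSeq) and Sc5d chr9:42264301-42264550, all on the minus strand of GRCm38.p6, are shown as those of called members. Capitals mark CCAAT on either strand, the box bound by NF-Y, a known partner of SREBP2 at sterol promoters. They were taken as the largest log2 differences among members with the box and 1 window, so the box in each is a result of the selection.
Cyp51: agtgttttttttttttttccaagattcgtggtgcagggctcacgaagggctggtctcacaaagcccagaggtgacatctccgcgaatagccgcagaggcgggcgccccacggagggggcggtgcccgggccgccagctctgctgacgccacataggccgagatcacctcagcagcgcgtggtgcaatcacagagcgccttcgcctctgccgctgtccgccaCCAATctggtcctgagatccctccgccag
Sc4mol: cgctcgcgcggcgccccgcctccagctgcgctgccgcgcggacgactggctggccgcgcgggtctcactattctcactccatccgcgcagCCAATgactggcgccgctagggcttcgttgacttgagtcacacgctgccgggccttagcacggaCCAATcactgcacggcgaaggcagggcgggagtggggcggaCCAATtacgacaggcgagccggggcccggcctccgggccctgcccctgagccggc
Sc5d: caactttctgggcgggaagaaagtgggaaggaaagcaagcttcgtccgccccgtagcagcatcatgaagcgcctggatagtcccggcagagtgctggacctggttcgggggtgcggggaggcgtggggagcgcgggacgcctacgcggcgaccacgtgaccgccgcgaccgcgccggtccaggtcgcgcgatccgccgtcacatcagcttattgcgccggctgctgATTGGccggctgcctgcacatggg
The box started at −29 in Cyp51, at −160, −96 and −55 in Sc4mol and at −24 in Sc5d. All 9 of the 14 genes that had a window held it, against 38.7% of the 6437 genes compared that had one. The spelling TCACNCCAC of a sterol element was found in 0 of the 9 and in 1.34% of the 6437. Fdps, Fdft1 and Sqle were among those with no entry.

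These called enzymes act from squalene onwards. Sc4mol, the sterol C4 methyl oxidase (chr8:67196942-67212375, mm9), had 215 reads in the siSmyd5-labelled library against 119, a ratio of 2.89 (2.30 to 3.64). Cyp51, the lanosterol demethylase (chr5:4080674-4104697, mm9), had 155 against 98, a ratio of 2.53 (1.95 to 3.29) and the largest corrected log2 difference of the list, 1.39. Under vehicle the ratios of Sc4mol and Cyp51 were 2.75 (2.25 to 3.38) and 2.16 (1.69 to 2.79), inside the KLA intervals.

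Sqle, the squalene epoxidase, had 191 reads against 146 and a ratio of 2.09 (1.68 to 2.61), and 288 against 198 under vehicle. Sc5d, the desaturase of a late step, had 112 against 76 and a ratio of 2.36 (1.75 to 3.19). Nsdhl, a sterol dehydrogenase, had 35 against 24.

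The early enzymes were mixed. Mvk, the mevalonate kinase, had 18 reads against 11, a ratio of 2.62 (1.17 to 6.13). Mvd had 38 against 51 under KLA, a ratio of 1.19 (0.761 to 1.85), and 91 against 64 under vehicle, 2.29 (1.64 to 3.20). Of 10 genes of SREBP2 regulation and sterol uptake 0 were called, with a median of 0.22. Srebf2 itself had 189 reads against 275, a ratio of 1.10 (0.908 to 1.33).

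Lipid genes outside that route did not share the direction as a group. Of 15 genes of fatty acid synthesis, Scd2, a stearoyl-CoA desaturase, was called higher with 51 reads against 43, a log2 difference of 1.15 (vehicle 1.51), and the median was 0.00. Of 11 LXR targets 0 were called after the correction, with a median of −0.10. Abca1, the cholesterol efflux pump and an LXR target, had 284 reads against 963, a ratio of 0.471 (0.411 to 0.539), which became −0.54 on the log2 scale for its length of 10210 bases. Plin2, of lipid droplets, had 688 against 1857 reads, a ratio of 0.592 (0.542 to 0.647) and a log2 difference of −0.91. Cd36, the scavenger receptor, had 1868 against 5015, a ratio of 0.596 (0.564 to 0.628), and it reversed with the columns exchanged (1.32).

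**Figure D4:**
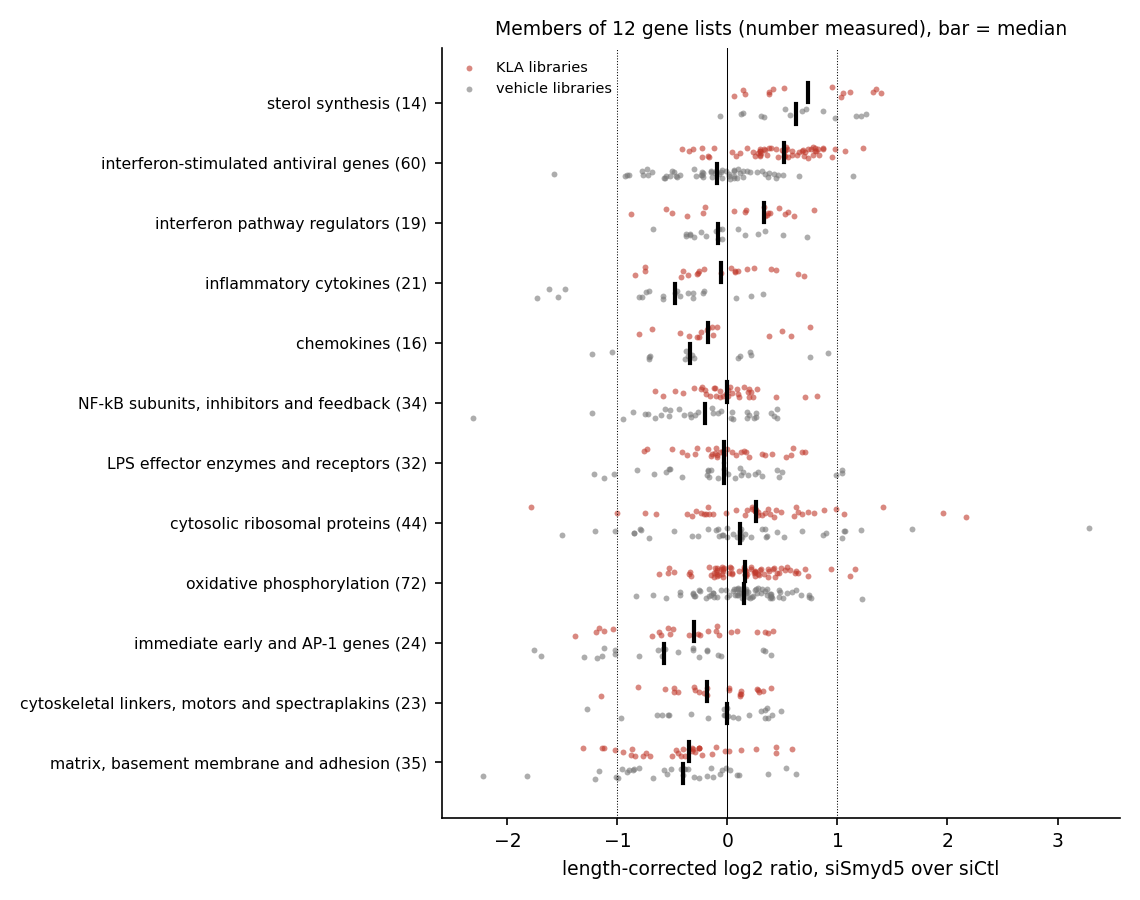
Each point is a gene of 1 of 12 lists (number compared in parentheses), with its length-corrected log2 ratio of siSmyd5 over siCtl in the KLA pair (red) and the vehicle pair (grey), and a black bar at the median. Sterol synthesis lies right of 0 in both pairs (0.73 and 0.62), the interferon-stimulated genes in the KLA pair alone (0.51 against −0.09), and matrix and immediate early genes left of 0.

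Immediate early genes lay lower. Of 24 compared, 0 were called higher and 5 lower (Nr4a3, Dusp1, Myc, Zfp36l1 and Dusp4; all genes: 2.31%), with a median of −0.31. Under vehicle 8 were lower (all genes: 3.39%), with a median of −0.58. With the KLA columns exchanged 1 was higher and 9 lower, and the median was −0.92. Myc, the growth regulator (chr15:61816896-61821916), had 44 reads against 150, a ratio of 0.469 (0.327 to 0.660), and 16 against 65 under vehicle. Nr4a3, an orphan nuclear receptor, had 19 against 76, a ratio of 0.400 (0.228 to 0.667). The MAP kinase phosphatases Dusp1 and Dusp4 had 33 against 112 and 84 against 259 reads, and Zfp36l1, an mRNA decay factor, had 12 against 46.

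Myc and Dusp4 were higher with KLA than with vehicle in both arms. KLA over vehicle was 2.50 (1.85 to 3.39) for Myc in siCtl and 2.96 (1.64 to 5.61) in the siSmyd5-labelled arm, and for Dusp4 3.30 (2.57 to 4.26) and 6.02 (3.45 to 11.2). Between the KLA libraries, Myc and Dusp4 reversed with the columns exchanged (1.44 and 0.55). Egr1 had 131 reads against 307 in the KLA pair, a ratio of 0.682 (0.552 to 0.840), and 11 against 45 without KLA. Not all members were low: Atf3 had 336 against 361, a ratio of 1.49 (1.28 to 1.73), and Junb 325 against 552, 0.941 (0.818 to 1.08).

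Matrix and adhesion genes lay lower as well. Of 35 compared, 10 were called lower as measured (all genes: 3.65%) and 4 after the correction (Hspg2, Lamb1, Fat1 and Tnc; all genes: 2.31%), 0 were higher, and the median was −0.35 (vehicle −0.41). Hspg2, the basement membrane proteoglycan perlecan (chr4:137024718-137126545), had 39 reads against 235, a ratio of 0.265 (0.184 to 0.373). Tnc, tenascin C, had 29 against 128, and Lamb1, a laminin chain, 25 against 112. These transcripts are long, and the correction reduced Hspg2 from −1.86 to −1.31 on the log2 scale. Genes of the longest group all had the same value subtracted, −0.54, at a group median of 9118 bases. Hspg2 (14080 bases) and Fat1 (14601 bases) are longer than that median, so part of the length slope may remain in their values, which was not tested. Lamb1 reversed with the columns exchanged (0.57), where 2 of the 35 were higher and 4 lower.

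Acta2 and Ctgf were among the 12 genes lowest as measured. Acta2, smooth muscle actin (chr19:34315581-34329826, minus strand), had 14 reads against 98, a ratio of 0.228 (0.120 to 0.402) and a log2 difference of −2.16, and 40 against 124 under vehicle. Ctgf, a matricellular growth factor, had 12 against 79, a ratio of 0.243 (0.120 to 0.448), and 23 against 129 under vehicle. Tagln (11 against 45), Lox (23 against 103) and Cdh11 (22 against 103) were called lower too, and were picked after their values were seen. In bulk samples fewer cells of a type and less RNA per cell cannot be told apart.

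Markers of fibroblasts and mesothelium were also lower in sum, without a length correction. The 5 compared had a median length of 5091 bases, and genes of about that length had a measured median log2 ratio of −0.27. After the correction 2 of the 5 lay above 0, and the median was −0.26. Of the 10 listed, 5 were compared and 0 called after the correction, and Krt19 had 0 reads in both libraries. The summed level of the list was 754 per 1000000 TMM-scaled reads in siSmyd5 KLA and 948 in siCtl KLA, and 682 and 914 under vehicle. Col1a1 had 287 reads against 620, a ratio of 0.740 (0.641 to 0.853), whereas Col1a2 had 341 against 604, a ratio of 0.902 (0.788 to 1.03). Their part in the matrix result was not tested. Of 6 B cell markers 1 was compared, and 0 of the 6 T cell markers, 1 of the 8 neutrophil markers (S100a8), 0 of the 8 eosinophil and mast cell markers and 0 of the 6 dendritic cell markers. The summed levels of these 5 lists were at most 53.3 per 1000000 in siSmyd5 KLA and 52.4 in siCtl KLA.

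Macrophage markers were well covered in both libraries. Of 30 listed, 29 were compared, and the median was −0.07. Cd68 had 1489 reads against 2589, Lyz2 2424 against 2670 and Emr1, the F4/80 antigen, 451 against 808, with ratios of 0.919 (0.862 to 0.980), 1.45 (1.37 to 1.53) and 0.892 (0.793 to 1.0). As measured 2 members were called lower (all genes: 3.65%), and after the correction 1 (all genes: 2.31%). That 1 was the transcription factor gene Maf, with 10 reads against 43 and a corrected ratio of 0.390 (0.175 to 0.788).

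Of 44 ribosomal protein genes compared, 9 were called higher and 1 lower as measured (all genes: 1.73% and 3.65%), with a median of 0.71. After the correction 4 were higher (Rps15a, Rpl13, Rpl26 and Rpl23; all genes: 0.938%) and 2 lower (Rpl3 and Rps19; all genes: 2.31%), with a median of 0.26. Rps15a (chr7:125247890-125259661, minus strand) had 181 reads in the siSmyd5-labelled library and 75 in siCtl, a ratio of 3.86 (2.93 to 5.12). Rpl13 (chr8:125626250-125629142) had 125 against 34, a ratio of 5.88 (4.00 to 8.86). Under vehicle they had 257 against 47 and 86 against 26, so both were higher with and without KLA. With the columns exchanged Rpl13 reversed (−0.84), as did the median of the list (−0.0924). Rpl3 had 12 against 62, a ratio of 0.309 (0.152 to 0.580).

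The lengths and copies of these genes limit the values. The table lists Rps15a at 5129 bases, so its corrected value of 2.17 exceeds the measured 1.90, and likewise Naca, a chaperone of nascent chains, at 7025 bases (1.64 against 1.26). Rpl26 and Gm15772 overlap on chromosome 11 from 68715091 to 68718036 and count the same reads (222 against 93 for Rpl26 and 246 against 115 for Gm15772), so they are 1 observation. Ribosomal protein genes have many processed copies, and how the authors placed shared reads is not given in the sources used here.

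Small mRNAs of the respiratory chain showed the length slope plainly. Of 72 genes of oxidative phosphorylation, with a median length of 711 bases, 7 were called higher as measured (all genes: 1.73%), with a median of 0.48. After the correction 2 were (Ndufb4 and Ndufs3; all genes: 0.938%), with a median of 0.16. Ndufb4 had 42 reads against 20, a ratio of 3.36 (1.93 to 6.04), and 50 against 37 under vehicle. Cytoskeletal linkers, with a median length of 8503 bases, showed the reverse: of 23, 4 were called lower as measured (all genes: 3.65%), with a median of −0.67. After the correction 1 was (Dst, 33 reads against 178; all genes: 2.31%), with a median of −0.19. Dst is listed at 23144 bases, far above the median of 9118 bases in its length group, so part of the slope may remain in its value. After the exchange 10 of the 23 were lower with a median of −0.88.

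Genes of the SMYD5 mark and its partners held few calls (all genes after the correction: 0.938% higher and 2.31% lower). Of 13 genes of the Smyd family, of H4K20 methylation and of the PHF2 family, 0 were called after the correction, with a median of −0.15, and Phf2 alone was called lower as measured. Setd8, which places the first methyl group on H4K20, had 117 reads against 239, a ratio of 0.783 (0.622 to 0.980), and Suv420h1, which adds further ones, 34 against 78, 0.697 (0.452 to 1.05). Of 12 genes of the NCoR and SMRT complexes, Bcl6, a repressor that recruits them, was called lower with 13 reads against 77. Its ratio was 0.270 (0.138 to 0.489), and under vehicle it had 61 reads against 147. Ncor1 had 210 against 441, a ratio of 0.761 (0.643 to 0.899) that its length of 8807 bases took to a log2 difference of 0.15. Of 16 histone lysine demethylases 0 were called. Kdm6b, an LPS-induced demethylase, had 169 against 543, a ratio of 0.497 (0.416 to 0.592) and a log2 difference of −0.62.

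The extremes of the ranking were mostly genes of few reads. The highest corrected differences after Rps15a were Mir5109 (37 reads against 7, log2 2.11), Rpl13, Snord55 (36 against 9, 1.82), which lies in a ribosomal protein host gene, and Nudt18 (24 against 10, 1.71). Mir5109 and Snord55 are listed at 86 and 77 bases, and Mir5109 had 1871 reads in siPhf2 KLA, the library rich in ribosomal RNA. Among the lowest, Foxo3, a stress-responsive forkhead factor, had 2 reads against 26, a ratio of 0.123 (0.0141 to 0.491), and Ppp1r10 had 14 against 93 (log2 −1.82). Malat1, an abundant nuclear non-coding RNA, was the best covered gene called higher, with 1570 reads against 1483, a ratio of 1.69 (1.57 to 1.82) and a log2 difference of 1.13 (vehicle 1.5, and −4.12 with the columns exchanged).

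The KLA and the vehicle pair share no library, and they largely pointed the same way. In the vehicle pair 127 genes were called higher (1.59%) and 271 lower (3.39%). Both pairs called 24 genes higher, which is 32.0% of the KLA list and 18.9% of the vehicle list, and 58 lower (31.4% and 21.4%). Of the 75 genes higher under KLA, 61 (81.3%) had a vehicle value above 0, with a median of 0.62. Of the 185 genes lower, 168 (90.8%) had one below 0, with a median of −0.63. Across the 7995 genes, which are not independent replicates, the Pearson correlation of the corrected log2 ratios was 0.517. The barcodes are shared within each pair and differ between pairs.

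Genes that held to both pairs included Ctgf, Foxo3, Ston1 (3 reads against 22) and Grb10 (6 against 39) among those lower. Sc4mol, Cyp51, Rpl13, Rps15a, Naca and Ufm1 (41 against 33) were among those higher. In 1 gene the calls opposed each other. Pyhin1, an interferon-inducible gene of the IFI200 family (chr1:175560990-175578059), had 261 reads against 212 under KLA, a ratio of 1.97 (1.64 to 2.37), and 10 against 38 under vehicle, 0.423 (0.188 to 0.866).

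**Figure D5:**
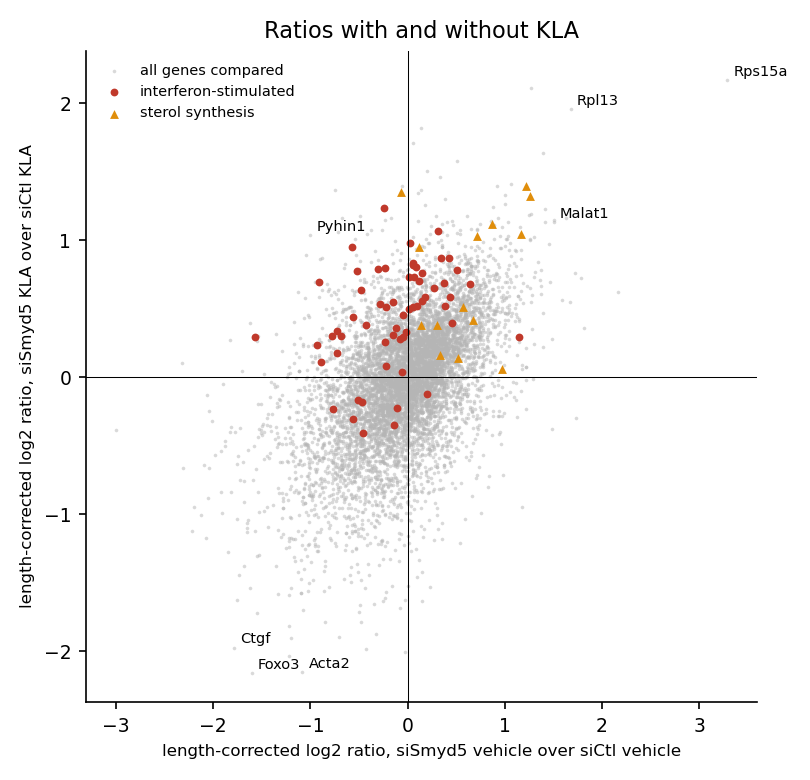
Each grey point is 1 of the 7995 genes, with its length-corrected log2 ratio in the vehicle pair (horizontal) and in the KLA pair (vertical), 1 library per group in each. Sterol genes (orange) lie mostly in the upper right, most interferon-stimulated genes (red) lie above 0 on the KLA axis at vehicle values around 0, and Pyhin1 lies at upper left.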

How the data were processed

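Poly(A) RNA of 6 mouse macrophage libraries was sequenced on a Genome Analyzer 2. The authors deposited a signal per RefSeq transcript, in which reads had been scaled to 10000000 tags, per the file headers. HOMER and build mm9 are named per the submitters' processing notes; alignment, filters and strand handling were not given in the sources used here. Whole reads were recovered by dividing each value by 10000000 over a header total, within 0.02 of a whole number. With their own totals 100% of the siSmyd5 KLA values and 2.43% of the siCtl KLA values came out whole; with the total printed for siPhf2 KLA (4978102), 100% of the latter did. Copied, overlapping and antisense genes cannot be told apart.

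For each symbol, the transcript of highest mean over the 6 libraries was kept. Groups came from the sample titles. Reads were scaled by TMM over 6 libraries (edgeR 4.0.16, R 4.3.3; DESeq2 1.42.0 for alternative size factors), and log2 ratios have 2 reads added at the mean effective library size. No test was made, since each group is 1 library. Ratios were computed in Python 3.11.15 with scipy 1.17.1 and checked on simulated data. Named genes are Smyd5, Phf2, the 12 highest and 12 lowest called genes, the 8 largest called the same way under both agents, and called, best covered or previously studied members of 36 lists; the other genes named, and the motifs, were chosen after values were seen. Some list members are not reported here by name. The comparison, its members and the lists were chosen with earlier results of these data known. Scaling, filter, added reads, transcript choice, length groups and the column exchange were varied.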

Additional observations from a re-analysis of the deposited data

Results flagged for a closer look

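Pyhin1 was the 1 gene called in opposite directions with and without KLA, and 6 lists had medians on opposite sides of 0. The differences between the pairs were not tested. Pyhin1 had a length-corrected log2 ratio of 1.03 under KLA and −1.0 under vehicle, on 10 siSmyd5-labelled reads in the latter. The interferon-stimulated genes had medians of 0.51 under KLA and −0.0917 under vehicle. The interferon pathway regulators had medians of 0.33 and −0.0892. The medians were −0.0012 and 0.0537 for fatty acid synthesis, −0.1245 and 0.0041 for histone lysine demethylases, 0.0411 and −0.0229 for MHC class II presentation and −0.0731 and 0.0466 for macrophage identity, all near 0 in both pairs. Single genes not called in both pairs also had values of opposite sign, such as Mx2 (0.95 and −0.57), Ifit1 (0.70 and −0.91) and Il6 (0.40 and −1.63). The KLA directions of the interferon lists reversed with the siCtl and siPhf2 columns exchanged.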

How the results depend on the processing

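Scaling to library totals, without Rn45s, by TMM of the KLA libraries or by DESeq2 size factors moved no count of calls by over 1.5 times and reversed no value, and the same held for 0.5 reads added, the longest transcript, 10 or 40 length groups and a mean of 10 reads over the KLA libraries. Without a filter on the mean, 223 genes were higher as measured and 170 after the length correction. At a mean of at least 50 reads there were 37 higher and 65 lower, and 19 and 26 after the correction. With 5 reads added, the corrected counts were 48 and 109. With the siCtl and siPhf2 KLA columns exchanged, 835 and 842 genes were higher and lower as measured, and 476 and 939 after the correction. The medians then became −1.52 for interferon-stimulated genes, −1.14 for NF-kB genes, −0.94 for cytokines, −0.93 for interferon regulators, −0.92 for immediate early genes, −0.89 for chemokines, −0.88 for cytoskeletal linkers, −0.66 for LPS effectors and −0.0924 for ribosomal proteins. The reversed genes then included Il1b (−3.00), Cxcl10 (−2.23), Nos2 (−1.68), Mx1 (−1.90), Mx2 (−1.69), Usp18 (−1.25), Ifi47 (−1.65), Herc6 (−0.68), Isg20 (−2.27), Igtp (−1.20), Myc (1.44), Dusp4 (0.55), Lamb1 (0.57), Rpl13 (−0.84), Cd36 (1.32) and Malat1 (−4.12). This list is not complete, since other named genes, such as Ifit1 and Irgm1, changed sign too. In that setting the comparison library is the shallow one with 71.6% of its reads on Rn45s; the cause of the other changes was not tested. Restriction to genes of 1 copy, and to lengths of 1500 to 4000 bases, were chosen after seeing the data and reversed no value. No paired analysis was possible because the groups hold 1 library each.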

Other observations

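Gene groups of protein turnover and metal handling held few calls between the KLA libraries after the length correction (all genes: 0.938% higher and 2.31% lower). Of 42 proteasome subunits, 2 were called higher as measured (all genes: 1.73%) and 0 after the length correction. After it 31 lay above 0 with a median of 0.22 (vehicle 0.27). Of 53 genes of lysosomal hydrolases and the V-ATPase 0 were called, 37 lay above 0 and the median was 0.13 (vehicle 0.15). In 51 of those 53 the whole interval of the measured ratio lay between 0.5 and 2. Of 21 Nrf2 and antioxidant genes 1 was called lower, Ftl1, and 5 lay above 0, with a median of −0.15. Of 15 S100 and annexin genes 3 were called higher as measured, above the share over all genes (1.73%), and 0 after the correction.

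Gm12250, an immunity-related GTPase gene outside the fixed list, had 393 reads against 278 and a log2 difference of 1.15 under KLA, with 4 against 8 reads under vehicle. Setdb2, a histone methyltransferase gene, had 115 reads against 84 and a log2 difference of 1.11, and 26 against 35 under vehicle. Both were picked after their values were seen.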
